A study of Mus musculus with 6 samples.

Results

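The 10 Trim genes described here lie on mouse chromosome 7 on both sides of the beta-globin genes, and were taken by symbol from a list of 18211 genes: Trim5, Trim6, Trim12a, Trim12c, Trim21, Trim30a, Trim30b, Trim30d, Trim34a and Trim68. They were selected on their position near the beta-globin genes and on the difference between the genotypes in these same libraries, so their genotype values are given as a description with no test. RNA was measured by sequencing in oligodendrocyte precursor cells (OPCs), the dividing progenitors from which myelinating oligodendrocytes form. They were isolated from the brain at postnatal day 7 by immunopanning with an antibody to PDGFRα. The name OPCs stands below for this isolated population, in which marker RNA of other cells, such as microglia, was also present. There were 3 wildtype libraries and 3 libraries from NG2-CreERTM:DISC1 exon3 fl/+ mice (DISC1-Δ3), in which tamoxifen removes exon 3 of Disc1 from one allele. Both groups are labelled C57BL/6 and received tamoxifen on 4 consecutive days, from postnatal day 4 to 7. The Cre is driven by the promoter of Cspg4, which encodes the proteoglycan NG2 of OPCs and pericytes, and by the study's methods the wildtype mice carried no CreERT, so effects of the floxed allele and of the Cre cannot be told apart. Nothing in the labels says whether replicates came from separate animals or litters, so p-values measure only the spread between these libraries.

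TRIM proteins carry a RING finger, a B-box and a coiled coil, and many of them act as ubiquitin ligases. Most of those encoded beside the beta-globin genes also carry a PRY-SPRY domain that recognizes viral or cellular partners, and the rodent Trim5, Trim12 and Trim30 genes are relatives of the primate retrovirus restriction factor TRIM5. Interferons are known to induce many members of the family through a promoter element, the interferon-stimulated response element (ISRE). In the brain, microglia are a major site of interferon-induced gene expression.

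The reference sequence at the start of these genes was examined first, because it was not used in choosing them. Each promoter was taken as 300 bases on the gene's strand, 250 before and 50 after the annotated start, from RefSeq GRCm38.p6, the assembly also called mm10; all 10 genes had an entry, and Trim30a had 2 starts. The first pair shown is Trim30a at chr7:104465144-104465443 and Trim30d at chr7:104507800-104508099, both on the minus strand, which are neighbours with much the same promoter at the Trim30a start shown. Capitals mark the ISRE core, searched on both strands as GAAA, any 2 bases and GAAA again, which reads TTTC, any 2 bases and TTTC on the other strand.
Trim30a: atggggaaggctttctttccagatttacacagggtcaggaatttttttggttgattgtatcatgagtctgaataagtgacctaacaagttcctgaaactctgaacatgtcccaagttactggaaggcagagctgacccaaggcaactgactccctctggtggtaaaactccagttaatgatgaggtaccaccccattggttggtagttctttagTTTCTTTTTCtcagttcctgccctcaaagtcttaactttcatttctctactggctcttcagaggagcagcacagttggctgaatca
Trim30d: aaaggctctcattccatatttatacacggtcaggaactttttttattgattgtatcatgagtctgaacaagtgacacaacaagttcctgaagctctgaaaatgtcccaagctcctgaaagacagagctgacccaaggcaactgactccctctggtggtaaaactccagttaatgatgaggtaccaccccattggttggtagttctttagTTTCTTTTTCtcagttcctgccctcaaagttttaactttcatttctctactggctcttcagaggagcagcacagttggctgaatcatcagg
These promoters matched at 93.6% of 295 aligned bases, with the element at the same place relative to the flanking sequence. The next pair is Trim12a at chr7:104315446-104315745 and Trim12c at chr7:104353300-104353599, also on the minus strand, shown because they share the element but differed in their genotype values below.
Trim12a: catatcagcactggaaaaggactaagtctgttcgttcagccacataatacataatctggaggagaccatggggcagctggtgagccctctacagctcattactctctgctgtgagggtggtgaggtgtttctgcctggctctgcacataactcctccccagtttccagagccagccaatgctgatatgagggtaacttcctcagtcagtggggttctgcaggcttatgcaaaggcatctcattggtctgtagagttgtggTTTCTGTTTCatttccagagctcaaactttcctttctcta
Trim12c: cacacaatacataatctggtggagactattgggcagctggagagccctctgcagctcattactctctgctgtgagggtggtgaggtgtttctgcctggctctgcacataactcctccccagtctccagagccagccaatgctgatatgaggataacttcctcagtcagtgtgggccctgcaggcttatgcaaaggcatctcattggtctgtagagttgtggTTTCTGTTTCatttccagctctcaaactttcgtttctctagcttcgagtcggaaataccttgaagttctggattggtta
They matched at 72.3% of 260 aligned bases without gaps. A difference in spacing ahead of the element put the bases after it out of register, so this share understates their likeness. The Trim5 promoter at chr7:104288057-104288356 is not printed, since it repeated that of Trim12a without a mismatch over 241 aligned bases, with its annotated start placed 59 bases further along. The last 3 are Trim21 at chr7:102565433-102565732 on the minus strand, with overlapping copies of the element, Trim34a at chr7:104244207-104244506 on the plus strand, and Trim68 at chr7:102687278-102687577 on the minus strand, which had none and was the member with higher values in DISC1-Δ3 OPCs.
Trim21: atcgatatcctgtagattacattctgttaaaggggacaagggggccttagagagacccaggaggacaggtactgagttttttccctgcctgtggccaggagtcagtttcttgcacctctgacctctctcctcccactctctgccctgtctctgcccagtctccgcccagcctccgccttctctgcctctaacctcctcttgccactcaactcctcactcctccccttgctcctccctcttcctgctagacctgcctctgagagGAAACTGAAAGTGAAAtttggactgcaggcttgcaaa
Trim34a: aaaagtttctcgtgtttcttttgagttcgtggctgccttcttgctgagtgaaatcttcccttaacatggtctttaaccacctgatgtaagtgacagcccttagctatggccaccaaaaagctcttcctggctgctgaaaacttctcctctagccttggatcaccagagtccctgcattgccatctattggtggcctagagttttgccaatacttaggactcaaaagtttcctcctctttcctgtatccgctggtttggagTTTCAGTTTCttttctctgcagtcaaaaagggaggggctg
Trim68: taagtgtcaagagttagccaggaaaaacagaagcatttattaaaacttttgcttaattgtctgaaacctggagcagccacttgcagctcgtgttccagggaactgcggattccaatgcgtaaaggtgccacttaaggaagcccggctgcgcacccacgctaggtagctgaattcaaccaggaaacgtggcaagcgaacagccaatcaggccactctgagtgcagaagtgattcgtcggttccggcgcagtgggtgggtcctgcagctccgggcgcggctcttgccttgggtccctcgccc

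The ISRE core was present in the promoters of 7 of the 10 genes, namely Trim5, Trim12a, Trim12c, Trim21, Trim30a, Trim30d and Trim34a. It was not found in these windows of Trim6, Trim30b and Trim68. Of those without it, Trim68 had higher values in DISC1-Δ3 libraries, though not past the test threshold given below. Trim6 and Trim30b had fewer reads in DISC1-Δ3 libraries. The 7 are not separate observations, because Trim5 and Trim12a, and Trim30a and Trim30d, are near copies. Trim12c also shared long stretches with Trim12a on both sides of the element. In comparison, the element was present in 3.44% of all 32851 promoters of the same length, in 3.73% of the 10964 tested genes with a promoter, in 2 of 36 other Trim genes (5.56%), and in 16 of 33 interferon-stimulated genes of a textbook list (48.5%). The gamma-activated site TTCNNNGAA, an element of genes induced by interferon gamma, was present in none of the 10 promoters, against 8.30% of all promoters and 9 of the 33 interferon-stimulated genes (27.3%). A match to these letters is a description of the reference sequence and not a measured binding site.

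The libraries held between 13716626 and 16417221 reads assigned to genes, so that 1 read equalled 0.0609 to 0.0729 CPM, counts scaled to the library total. The total expression of Disc1 was 3.51, 3.34 and 3.81 RPKM (reads scaled to transcript length and library total) in wildtype and 2.86, 2.44 and 2.85 RPKM in DISC1-Δ3 libraries, a log2 fold change of -0.45 (adjusted p = 5.28e-04, edgeR's quasi-likelihood test); counts per gene do not resolve exon 3. DISC1-Δ3 replicate 3 stood apart: chi-square per degree of freedom against the other DISC1-Δ3 replicates was 5.38 and 4.98, compared with 1.80 to 2.96 for the remaining pairs within a genotype. Over all genes, 5498 of 13792 tested (39.9%) differed at an adjusted p under 0.05, 2807 higher and 2691 lower in DISC1-Δ3 OPCs. With libraries scaled to equal RPKM sums instead of by TMM, 4101 of 5849 calls were higher (70.1%, against 51.1%), and the median log2 fold change of all genes was 0.09 instead of 0.01.

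Of the 10 Trim genes, 8 passed the filter on low values, which asked 3 or more of the 6 libraries to reach 0.5 RPKM; Trim5 passed through its wildtype libraries and 1 DISC1-Δ3 library, and Trim6 and Trim30b did not pass. Fitted log2 fold changes (DISC1-Δ3 minus wildtype) ran from -1.34 to 0.33 with a median of -0.79, beside 0.01 for all tested genes. Of the 8, 6 were past the adjusted p threshold, each in the lower direction, beside a background of 39.9% in either direction 19.5% in the lower and 20.4% in the higher one. The call of Trim5 did not hold under every alternative run, and its RPKM overlapped. RPKM did not overlap between the genotypes for 6 of the 8, against 52.0% of all tested genes (16.1% lower and 35.9% higher). Since the contrast served to choose the genes, nothing is read from these counts. The summed RPKM of the 10 genes was 25.72, 28.47 and 28.35 in the wildtype libraries, against 16.43, 17.09 and 20.27 in those of DISC1-Δ3 mice, so that every DISC1-Δ3 library lay under every wildtype one and replicate 3 came nearest to them. In whole-population RNA, fewer cells of a type and less RNA per cell cannot be told apart.

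**Figure D1:**
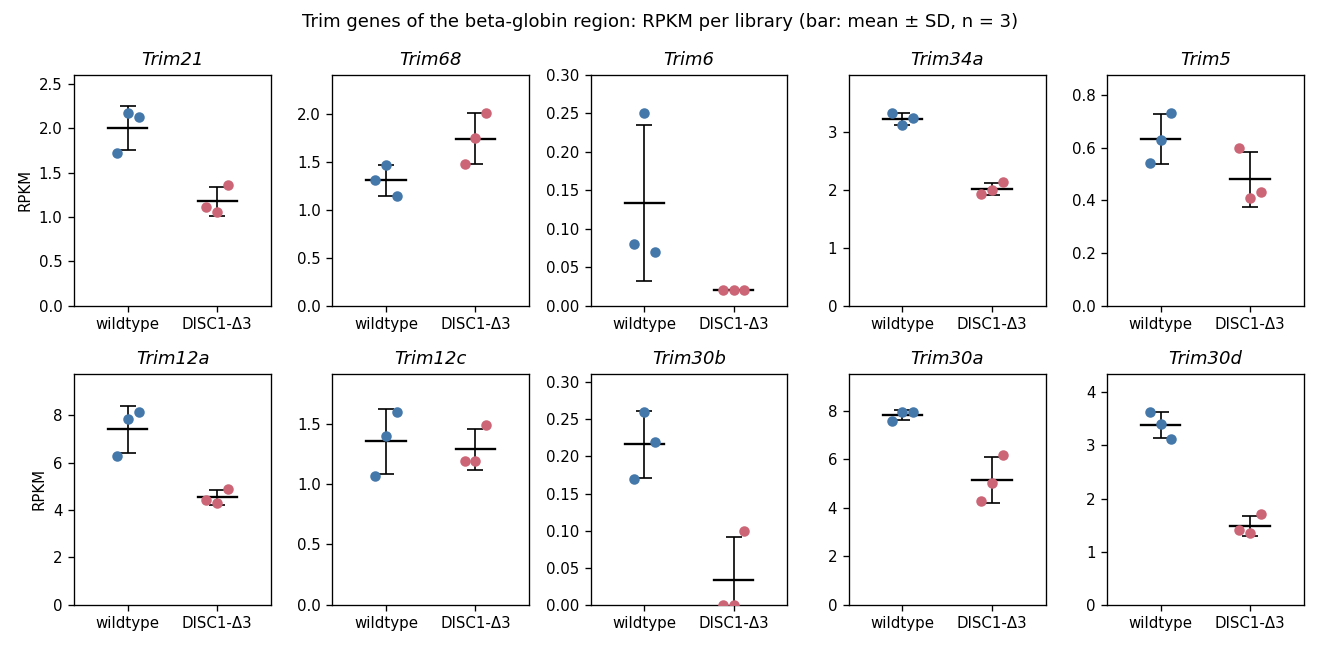
RPKM of the 10 Trim genes in each of the 3 wildtype and 3 DISC1-Δ3 libraries, with points for libraries, lines for group means, bars for SD (n = 3) and a separate axis from 0 for each gene. Trim30a and Trim12a are the most abundant in both genotypes, Trim30d has the widest separation of the tested genes, and Trim68 lies higher in DISC1-Δ3.

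Trim30a (chr7:104409025-104465193) encodes a protein known to dampen Toll-like receptor signaling by promoting the degradation of the adaptors TAB2 and TAB3. It measured 7.59, 7.94 and 7.94 RPKM in wildtype and 4.28, 5.02 and 6.15 RPKM in DISC1-Δ3 libraries, from 222.33 to 476.31 reads per library. The groups did not overlap, with a fitted log2 fold change of -0.69 (standard error 0.10). Leaving out 1 library at a time moved this between -0.83 and -0.60.

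Trim30d (chr7:104470014-104507853), the neighbouring relative of Trim30a, had the lowest fold change of the tested Trim genes in the region. Its levels were 3.63, 3.40 and 3.13 RPKM in wildtype and 1.41, 1.35 and 1.70 RPKM in DISC1-Δ3 libraries. Its lowest wildtype library was well above its highest DISC1-Δ3 library, and the log2 fold change was -1.34 (standard error 0.14), or -1.5 to -1.27 with a library left out. The ratio of Trim30a to Trim30d RPKM was 2.09, 2.34 and 2.54 in wildtype, against 3.04, 3.72 and 3.62 in DISC1-Δ3 libraries, so the ratio was higher in each DISC1-Δ3 library. The promoter likeness above holds for the Trim30a start shown; the other start of Trim30a matched Trim30d at 52.0% of 256 aligned bases. Of the distinct 50-base windows in their transcripts, 243 were common to both, 6.53% of those of Trim30a and 6.39% of those of Trim30d. The counts of both genes were fractional in all 6 libraries. Reads and RPKM of Trim30d implied a transcript length of 3359, 3479 and 3450 bases in wildtype. In DISC1-Δ3 libraries it was 2974, 3242 and 3455 bases. The RPKM of Trim30d and its ratio to Trim30a are thus uncertain. Trim30b (chr7:104355398-104358646) was near the limit of detection, with 6.11, 11.32 and 9.33 reads in wildtype and 0, 0 and 4.11 reads in DISC1-Δ3 libraries. Summed over each genotype and scaled to the totals, its rounded reads were 6.50-fold higher in wildtype (26 against 4), a fold that rests on few reads.

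Trim12a (chr7:104299893-104315558) and Trim12c (chr7:104338754-104353358) are rodent relatives of TRIM5. Trim12a measured 6.29, 7.84 and 8.14 RPKM in wildtype and 4.42, 4.29 and 4.88 RPKM in DISC1-Δ3 libraries, without overlap and with a log2 fold change of -0.83 (standard error 0.13). Trim12c measured 1.07, 1.4 and 1.6 RPKM in wildtype and 1.19, 1.19 and 1.49 RPKM in DISC1-Δ3 libraries, with overlapping groups and a log2 fold change of -0.18 (standard error 0.18). The ratio of Trim12a to Trim12c RPKM therefore went from 5.88, 5.60 and 5.09 in wildtype to 3.71, 3.61 and 3.28 in DISC1-Δ3. Both had their lowest wildtype value in replicate 1.

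Trim5 (chr7:104263386-104288254) gave different pictures in its RPKM and its reads. Its RPKM was 0.54, 0.63 and 0.73 in wildtype, against 0.60, 0.41 and 0.43 in DISC1-Δ3 libraries, with overlapping groups. Its reads were 24.33, 31.29 and 36 in wildtype, against 19.98, 18.57 and 13.26 in DISC1-Δ3 libraries, giving a log2 fold change of -0.88 (standard error 0.28). The fit to log2(RPKM + 0.1) gave -0.35 and that to log2(RPKM + 1) gave -0.14, where the added 1 shrinks the change at such low levels. The transcript length implied by reads and RPKM was 3285, 3025 and 3014 bases in wildtype and 2340, 2806 and 1913 bases in DISC1-Δ3 libraries, so the length used in the deposited RPKM was not fixed for this gene. Trim5 shared 36.3% of its 50-base windows with other genes, 889 windows with Trim12c and 298 with Trim12a, and its count was fractional in 5 of the 6 libraries. Reads of Trim5, Trim12a and Trim12c may thus have been divided between them, and their separate values are uncertain.

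Trim34a (chr7:104244448-104262244) encodes a relative of TRIM5 that binds retroviral capsids in primates. It measured 3.32, 3.11 and 3.24 RPKM in wildtype and 1.92, 2.00 and 2.13 RPKM in DISC1-Δ3 libraries and the groups did not overlap. The log2 fold change was -0.75 (standard error 0.14). It shared 39.8% of its 50-base windows with Trim34b, a copy in the same cluster that was at 0 to 0.42 RPKM. Trim6 (chr7:104218795-104235152), whose protein makes free ubiquitin chains that activate the kinase IKKε, had 4, 15 and 4 reads in wildtype and 1 read in each DISC1-Δ3 library. Its summed reads, scaled to the totals, were 7.66-fold higher in wildtype (23 against 3). Most of the wildtype reads came from replicate 2, and the fold rests on few reads.

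Trim21 and Trim68 lie on the other side of the beta-globin genes and had no fractional counts. Trim21 (chr7:102557920-102565482), the cytosolic antibody receptor that directs antibody-coated viruses to the proteasome, measured 1.72, 2.17 and 2.13 RPKM in wildtype and 1.11, 1.06 and 1.36 RPKM in DISC1-Δ3 libraries. These did not overlap, and the log2 fold change was -0.85 (standard error 0.18). Trim68 (chr7:102677579-102687335), a ubiquitin ligase known to act on the androgen receptor, measured 1.31, 1.47 and 1.15 RPKM in wildtype and 1.48, 1.75 and 2.01 RPKM in DISC1-Δ3 libraries. The highest wildtype and lowest DISC1-Δ3 values were nearly equal, without overlap, with a log2 fold change of 0.33 (standard error 0.19). Trim68 was not past the adjusted p threshold. Its promoter had neither motif, nor did those of Trim6 and Trim30b, which had fewer reads in DISC1-Δ3 libraries.

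In wildtype libraries the order of RPKM levels was Trim30a and Trim12a, then Trim30d and Trim34a, then Trim21. Below these came Trim12c and Trim68, then Trim5, then Trim30b and Trim6. The genes joined by "and" had overlapping ranges over the 3 libraries, and neighbouring steps did not overlap. In DISC1-Δ3 libraries Trim30a and Trim12a again had the highest levels. Trim34a, Trim68, Trim30d, Trim12c and Trim21 formed a chain from 2.13 down to 1.06 RPKM in which each overlapped the next. Trim30d held the third place in wildtype and the fifth in DISC1-Δ3 OPCs, and Trim68 the seventh and the fourth. Within genotypes, over the 6 libraries with each genotype's mean removed, log2(RPKM + 1) of Trim12a went with that of Trim12c (Pearson's r = 0.966) and Trim21 (r = 0.945). The genes most like Trim30a in this measure were Pcdh15, Efcc1 and Tut1, those most like Trim12a were 6330403K07Rik, Slc7a6 and Rab20, and those most like Trim34a were Scn2a, Rsbn1l and Mios. Over only 6 libraries such likeness was not confined to the genes named: 272, 95 and 125 of 13760 genes had an r over 0.95 with Trim30a, Trim12a and Trim34a.

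The other genes of the region, from 1 Mb before Trim21 to 1 Mb after Trim30d, were examined to see whether they moved with the Trim genes. Of the 58 listed, 24 were tested, the rest being mostly olfactory receptor genes under the filter. In total 11 passed the test, 7 higher and 4 lower (45.8%, against 39.9% of all tested genes), with a median log2 fold change of 0.02. The count was 6 with wildtype replicate 1 left out and 7 with DISC1-Δ3 replicate 1 left out. Adult beta-globin genes rose: Hbb-bt from 349 ± 15.9 to 638 ± 8.31 RPKM (SD, n = 3; log2 fold change 0.80, adjusted p = 5.36e-10) and Hbb-bs from 2820 ± 85.2 to 4410 ± 153 RPKM (0.57, adjusted p = 2.23e-08). Cckbr, the receptor for cholecystokinin and gastrin, rose at a low level, from 0.410 to 0.887 RPKM (1.07, adjusted p = 0.00935). Lamtor1, a lysosomal scaffold of mTORC1 signaling, fell with a log2 fold change of -0.22 (adjusted p = 0.00107). Inppl1, a phosphoinositide phosphatase, rose by 0.25 on the log2 scale (adjusted p = 2.63e-04). Of the nearest tested genes, those between the Trim runs passed, namely Olfr613 after Trim68 and Hbb-bs before Trim6. Those outside or within the runs did not: Rrm1, before Trim21, stood at 0.14 on the log2 scale (adjusted p = 0.0531), Gm38525, which overlaps Trim30b so that their reads may not be separable, had -0.62 (standard error 0.35, adjusted p = 0.175), and Fam160a2, after Trim30d, had -0.01 (adjusted p = 0.945).

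Another 5 genes of the region passed but lost the threshold with a library left out: Folr2 (log2 fold change 0.33), Xndc1 (0.31), Clpb (0.17, adjusted p = 0.0407), Olfr613 (-0.42) and the calcium sensor gene Stim1 (-0.19). Without wildtype replicate 1 the adjusted p was 0.0507 for Folr2, 0.0753 for Xndc1, 0.0639 for Clpb, 0.0805 for Olfr613 and 0.0989 for Stim1. For Olfr613 and Xndc1 it was 0.155 and 0.178 without wildtype replicate 2, and 0.0688 and 0.0590 without DISC1-Δ3 replicate 2. Without DISC1-Δ3 replicate 1 it was 0.0511, 0.115 and 0.0786 for Folr2, Xndc1 and Olfr613, and without wildtype replicate 3 it was 0.0569 for Stim1. Clpb, chosen after its values were known, had 0.0931 and 0.132 without wildtype replicates 2 and 3, and 0.145 and 0.192 without DISC1-Δ3 replicates 1 and 2. Rrm1 passed without DISC1-Δ3 replicate 3 (adjusted p = 0.0214).

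**Figure D2:**
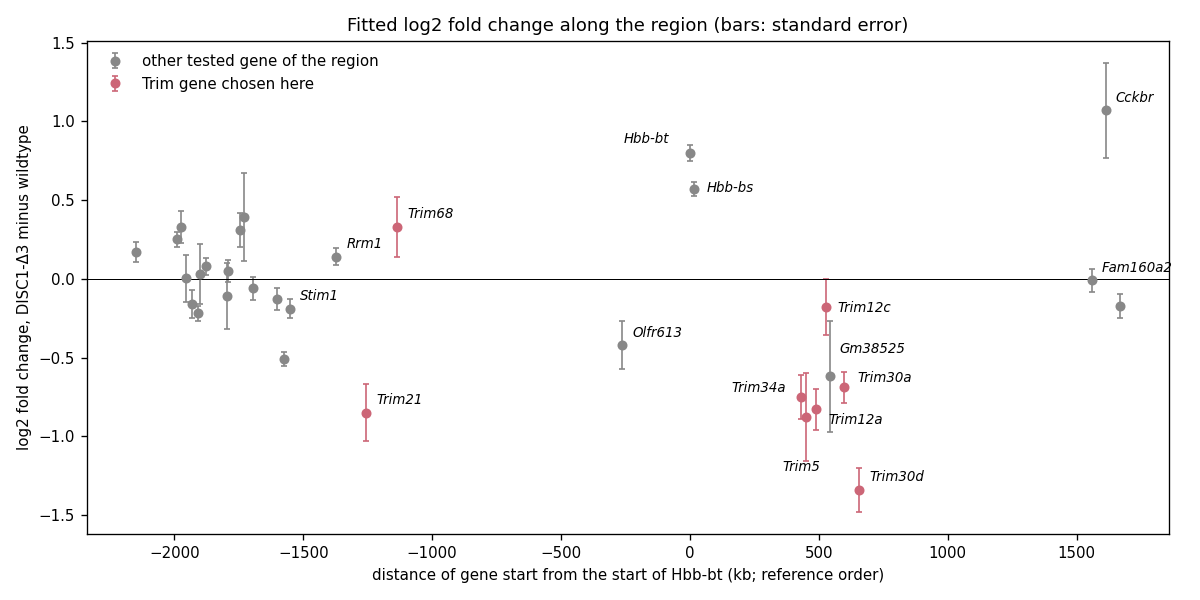
Fitted log2 fold change (DISC1-Δ3 minus wildtype) with its standard error for tested genes against the distance of their start from the start of Hbb-bt in kb. Trim34a, Trim5, Trim12a, Trim30a and Trim30d lie between -0.69 and -1.34 beside the beta-globin genes at 0.57 and 0.80, while Trim12c lies near 0.

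Besides Hbb-bs and Hbb-bt, which are the adult beta-globin genes of C57BL/6 mice, the table held Hbb-b1 and Hbb-b2, the adult pair of another haplotype found in other inbred strains. The reference does not place Hbb-b1 and Hbb-b2 among the genes of this region of the C57BL/6 assembly. Hbb-b1 measured 7.33, 7.97 and 5.44 RPKM in wildtype and 1365.5, 1378.75 and 1305.7 RPKM in DISC1-Δ3 libraries (log2 fold change 7.54, adjusted p = 1.76e-20). Hbb-b2 measured 0.91, 1.61 and 0.88 RPKM in wildtype and 163.32, 161.73 and 156.25 RPKM in DISC1-Δ3 libraries (7.02, adjusted p = 2.92e-17). Of the reads on the 4 adult beta-globin genes, those on Hbb-b1 and Hbb-b2 made up 0.262%, 0.299% and 0.190% in wildtype, against 22.8%, 22.7% and 22.8% in DISC1-Δ3 libraries. The groups thus differed in which beta-globin haplotype their reads were assigned to, with nearly equal shares in the 3 DISC1-Δ3 libraries. Hbb-bs shared 57.5% of its 50-base windows with Hbb-bt, so the levels of single beta-globin genes are uncertain. The Trim genes lie next to this haplotype on chromosome 7, and Disc1 lies on chromosome 8. The Cspg4 gene lies on chromosome 9, but where the Cre was inserted is not given in the sources used here. The part of the haplotype in the Trim values was not tested.

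**Figure D3:**
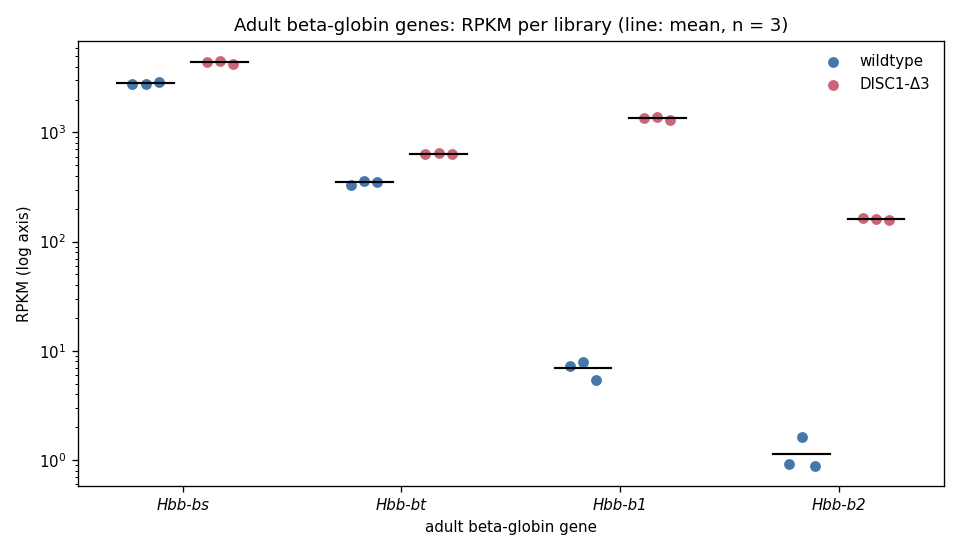
RPKM of the 4 adult beta-globin genes in each library, on a log axis, with lines for group means. Hbb-b1 and Hbb-b2 are under 10 RPKM in the wildtype libraries and over 150 RPKM in the DISC1-Δ3 libraries, whereas Hbb-bs and Hbb-bt differ far less.

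Trim genes elsewhere, together with Trim34b, numbered 51 in the table, and 32 were tested. Of these 9 passed, 4 higher and 5 lower in DISC1-Δ3 OPCs (28.1%, against 39.9% of all tested genes), and their median log2 fold change was 0.02. The lower ones included Trim36 (-0.55), Trim14 (-0.48, adjusted p = 7.86e-05), an adaptor of antiviral signaling, and Trim25 (-0.42, adjusted p = 5.62e-05), the ligase that acts on the RNA sensor RIG-I. Trim11 also fell (-0.34, adjusted p = 0.0120), but its adjusted p was 0.0546 with wildtype replicate 3 left out and 0.0619 with DISC1-Δ3 replicate 2 left out. Trim32, a ligase studied in neural progenitors and muscle, rose from 8.88 to 13.2 RPKM (0.49, adjusted p = 2.00e-05), and Trim46, which organizes axonal microtubules, from 7.78 to 11.3 RPKM (0.44). Trim62 (0.33) and the corepressor gene Trim28 (0.22, from 93.4 to 115 RPKM) also rose. The most abundant others were Trim9, at 64.2 and 71.3 RPKM (0.05, adjusted p = 0.375), and Trim8, at 45.5 and 51.2 RPKM (0.09, adjusted p = 0.136). Trim28, Trim8 and Trim9 were each above every Trim gene of the beta-globin region in RPKM.

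**Figure D4:**
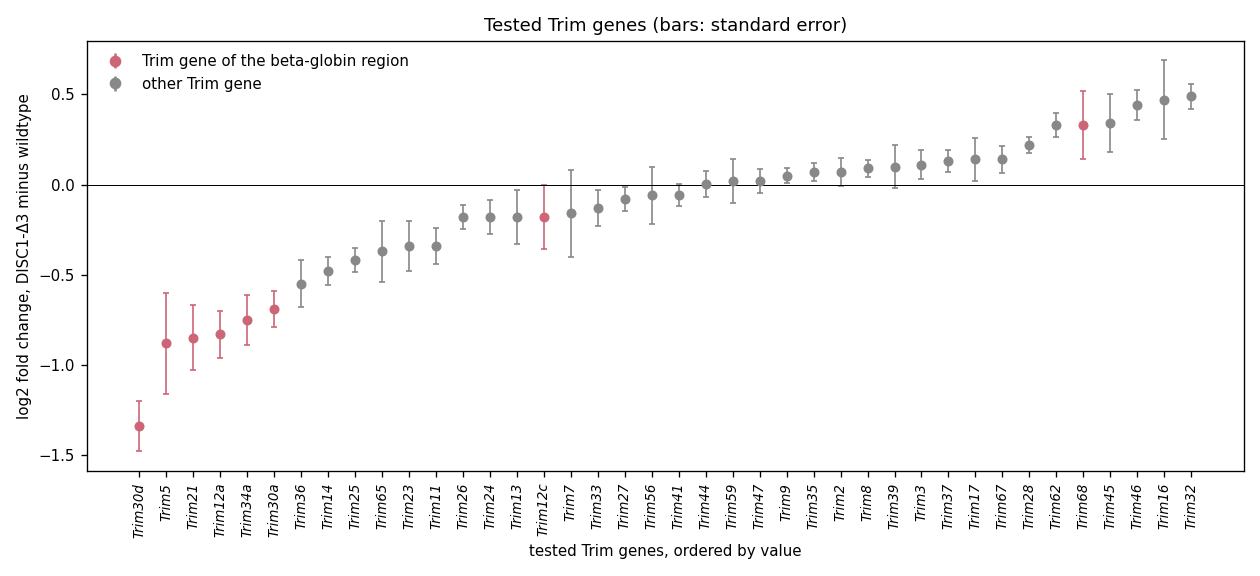
Fitted log2 fold change with its standard error for all tested Trim genes, ordered by value, with those of the beta-globin region in red. Trim30d, Trim5, Trim21, Trim12a, Trim34a and Trim30a hold the lowest values, Trim12c sits at -0.18 and Trim68 at 0.33.

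Genes induced by interferon, the pathway known to act on the ISRE, fell in large part. On a textbook list of 46 genes, 42 were tested and 30 were lower and none higher in DISC1-Δ3 OPCs, or 71.4% against 19.5% lower among all tested genes, with a median log2 fold change of -0.43. Dtx3l (-0.90), the nucleic acid sensor gene Zbp1 (-0.89), the peptide transporter gene Tap1 (-0.88, from 33.1 to 19.0 RPKM) and the guanylate-binding protein gene Gbp2 (-0.86) fell most, and the transcription factor gene Irf7 fell by 0.61 on the log2 scale (adjusted p = 5.69e-07). The fall did not extend to all of them: Isg15 had 0.17 (adjusted p = 0.318) and Ifit1 0.29 (adjusted p = 0.311). Among 17 interferon receptors and transducers, 13 were lower and none higher (76.5%), with a median of -0.39. Irf1 (-0.91, from 65.7 to 36.9 RPKM), Socs3 (-0.83), Ifngr1 (-0.61) and Stat2 (-0.54) fell most, while Irf9 fell by 0.47 on the log2 scale.

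Proteins known to work with TRIM ligases, such as their ubiquitin-conjugating enzymes and the kinases and adaptors of innate signaling, numbered 23, all tested. Of these 8 were lower and 3 higher (47.8% called, close to the 39.9% of all tested genes), with a median of -0.01, and without wildtype replicate 1 the count was 7. Tab2, a known target of Trim30a, fell from 37.7 to 28.5 RPKM (-0.49, adjusted p = 2.11e-06). The DNA sensor gene Cgas (-0.74), its partner Tmem173 (-0.46), which encodes STING, and the kinase gene Tbk1 (-0.46) also fell. The RPKM of Tbk1 overlapped between the genotypes, with DISC1-Δ3 replicate 3 (8.52) inside the wildtype range (8.25 to 8.71). The inflammasome gene Nlrp3 rose from 21.6 to 27.0 RPKM (0.24, adjusted p = 0.00137). Ube2n (0.17) and Vcp (0.14) passed but did not pass without wildtype replicate 2 (adjusted p = 0.173 and 0.117) or without DISC1-Δ3 replicate 1 (0.0979 and 0.133). Ube2n also did not pass without wildtype replicate 3 (0.0619) or DISC1-Δ3 replicate 3 (0.0518), nor Vcp without DISC1-Δ3 replicate 2 (0.0730).

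**Figure D5:**
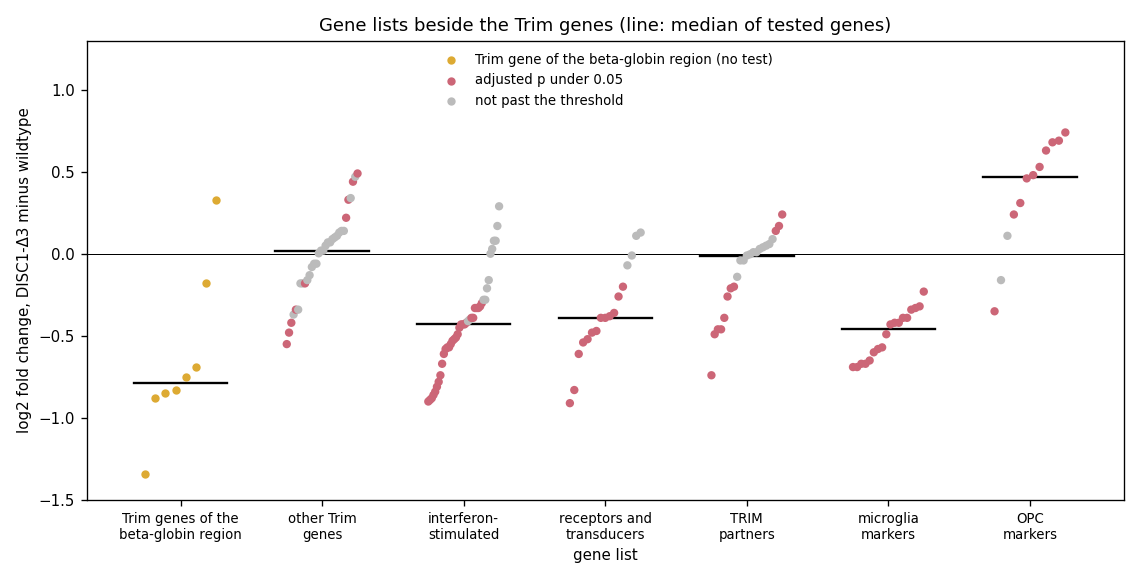
Fitted log2 fold change of each tested gene by gene list, with a line for the median of each list. The Trim genes of the beta-globin region have a median of -0.79, the interferon-stimulated genes -0.43, their receptors and transducers -0.39, the microglia markers -0.46 and the OPC markers 0.47.

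Markers of other cells moved with genotype in the same libraries. Of 18 microglia markers, each was lower in DISC1-Δ3 libraries, with a median log2 fold change of -0.46, and their summed level was 20030 to 20480 RPKM in wildtype and 14260 to 14800 RPKM in DISC1-Δ3. The complement genes C1qa, C1qb and C1qc, the highest of the microglia markers, stood at 3310, 3100 and 3270 RPKM in wildtype. The highest OPC markers there were Olig1 (252 RPKM), Ptprz1 (102 RPKM) and Gpr17 (61.7 RPKM). Pdgfra (17.5 RPKM) and Cspg4 (15.8 RPKM) were lower. All 12 OPC markers were detected, and 9 rose and 1 fell, with sums of 581.6 to 603.4 RPKM in wildtype and 753 to 785.5 RPKM in DISC1-Δ3. Pdgfra rose to 25.9 RPKM and Cspg4 to 22.9 RPKM (log2 fold changes 0.48 and 0.46), and Ptprz1 fell. Per 1000 RPKM of microglia markers, the 10 Trim genes together had 1.28, 1.41 and 1.38 RPKM in wildtype and 1.12, 1.16 and 1.42 RPKM in DISC1-Δ3 libraries, which overlapped. On that scale Trim30a (0.379 to 0.393 and 0.291 to 0.431) and Trim21 (0.0859 to 0.108 and 0.0716 to 0.0954) also overlapped. Each of these overlaps came from DISC1-Δ3 replicate 3, the library that stood apart. DISC1-Δ3 replicates 1 and 2 lay under every wildtype library for the sum, Trim30a and Trim21. Trim30d did not overlap (0.153 to 0.181 and 0.0912 to 0.119). The other Trim genes of the region were not put singly on this scale, so Trim30d need not be alone in this. The part of microglial RNA in the values of the Trim and interferon genes was not tested.

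Of the other cell types, 5 of 5 tested erythroid markers rose, with sums of 6074 to 6480 RPKM in wildtype and 11790 to 13050 RPKM in DISC1-Δ3. Hba-a1 had a log2 fold change of 1.08, Hba-a2 of 0.54 and the heme synthesis gene Alas2 of 1.0, beside the higher beta-globin genes above. Of the neuron markers 7 of 8 rose and of the endothelial markers 5 of 8, while 5 of 7 tested oligodendrocyte markers fell. Of the 8 astrocyte markers 5 fell and 1 rose. No marker was at 0 in all 6 libraries, and the part of these cells in the Trim values was not tested.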

How the data were processed

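The authors deposited 1 table with an expected count and an RPKM per gene and library; 90.2% of counts above 0 were whole, and the others are read here as reads divided between genes, which no source used here states. The authors' RPKM was rounded to 2 decimals and not scaled further between libraries. The submitters' notes name Bowtie2 2.2.5 and mm10, and the study names DESeq2; the counter and annotation are not given in the sources used here. The other 4 columns, group averages, were not used.

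Expected counts were rounded and tested with edgeR 4.0.16 (R 4.3.3; quasi-likelihood test, TMM scaling) in genes that reached 0.5 RPKM in 3 or more of the 6 libraries. The test was two-sided, with Benjamini-Hochberg adjustment over 13792 genes and a threshold of 0.05. The code was tested on simulated data. Alternatives were other scalings, filters and rounding, DESeq2 1.42.0, limma 3.58.1 on log2(RPKM + 1) and log2(RPKM + 0.1), a replicate block and leaving out each library. The members, lists and alternatives were chosen with earlier results of these data known. Besides the members, the beta-globin genes, Disc1 and Cspg4, the text names by rule the largest called changes, the nearest tested neighbours, the highest levels and a few interferon genes of each list; some genes that this rule names, among them a lower gene of the region, are not reported here. RefSeq GRCm38.p6 gave coordinates and promoters, and 50-base windows came from GENCODE M21 protein-coding transcripts. Promoters were aligned without gaps at shifts of up to 100 bases.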

Additional observations from a re-analysis of the deposited data

How the results depend on the processing

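For the genes of the region, the count of called genes (11) ranged from 6 to 13 with a library left out, being 6 where wildtype replicate 1 was left out and 7 where DISC1-Δ3 replicate 1 was. For the TRIM partners (11) it ranged from 7 to 9, with 7 without wildtype replicate 1. With no filter on low values the other Trim genes gave 14 calls of 51 instead of 9 of 32; more genes were tested. The median log2 fold change of the Trim genes of the region was -0.48 in the limma fit to log2(RPKM + 1), against -0.79; the added 1 shrinks the change of low genes. Over all genes, leaving out a library gave 4342 to 6232 calls and DESeq2 gave 4600. The interferon-stimulated genes gave between 27 and 32 calls under every alternative run, the receptors and transducers between 12 and 14, and all 18 microglia markers passed in each. Of 956 values of 64 single genes, 894 stayed on their side of the threshold or within the spread of replicates and none reversed. Scaling by RPKM sums and both limma fits ended the calls of Olfr613, Stim1 and Trim11 and made calls of Rrm1, Trim8 and Trim9, and DESeq2 ended those of Clpb, Folr2, Xndc1 and Ube2n. Clpb was also lost under median-of-ratios scaling and with no filter.

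The replicate numbers did not pair the libraries, with correlations of deviations of 0.0444, 0.0263 and -0.0288 for the 3 numbers. With the replicate number as a block, 5429 genes were called, 10 in the region, 9 other Trim genes, 30 interferon-stimulated genes, 13 receptors and transducers, 11 partners, 18 microglia markers and 10 OPC markers, and the median of the Trim genes of the region was -0.78. Olfr613 lost its call under the block (adjusted p = 0.0574). The depth reached, 13716626 to 16417221 reads per library, left Trim6 and Trim30b with 1 to 15 and 0 to 11.32 reads, so their folds carry a large counting error.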

Other observations

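Several Trim genes outside the region were nearly silent in wildtype OPCs and were not tested because of the filter on low values; they were picked once their values were known. Trim50 had 0 reads in each wildtype library and 9, 10 and 8 reads in the DISC1-Δ3 libraries. Trim75 had 1, 0 and 0 reads in wildtype and 11, 12 and 21 reads in DISC1-Δ3 libraries. Trim10 had 2, 2 and 1 reads in wildtype and 6, 17 and 16 reads in DISC1-Δ3 libraries. In each of these 3 genes every DISC1-Δ3 library was above every wildtype library, the opposite direction to Trim6 and Trim30b, the low-level genes of the beta-globin region. Among all tested genes 35.9% were higher in DISC1-Δ3 OPCs without overlap and 16.1% lower. The share among genes under the filter, such as these, was not counted, so nothing is read from the directions.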
